A study of Rattus norvegicus with 8 samples.

Results

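Elastin (Eln) and lysyl oxidase (Lox) were followed by RNA sequencing in cardiac fibroblasts (CFs) of neonatal Wistar Kyoto rats, in myofibroblasts (MFs) and in MFs exposed to microcurrent. The 2 genes were chosen by name, as Ensembl IDs ENSRNOG00000001469 for Eln and ENSRNOG00000014426 for Lox, out of 21867 genes in the table of estimated counts. The tables list genes by ID only, so the pairing of these IDs with the symbols Eln and Lox came with the selection and was not checked here. Both genes were among the 13849 genes that passed the filter on low counts.

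Elastin is the core protein of elastic fibres, which let arteries, lungs and other stretched tissues recoil. Cells secrete it as the soluble monomer tropoelastin, which assembles on a scaffold of microfibrils. Lysyl oxidase is a secreted, copper-dependent enzyme that oxidises lysines in tropoelastin and in fibrillar collagens, and the aldehydes it makes then form the cross-links that render both fibres insoluble. In the heart, Lox is best known for collagen cross-linking during fibrosis, and its level bears on the stiffness of the matrix.

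There were 8 libraries, 2 in each of 4 groups. The CFs were the starting cells, grown in standard medium with 10% fetal bovine serum. The MFs were made from CFs by repeated passaging in a medium low in serum. The labels name no deletion or transgene in any group. The 1 µA and 2 µA groups were such MFs under direct current at 1 or 2 µA/cm2 for 72 h in that standard medium. The medium of the untreated MFs over those 72 h is not given in the sources used here, so an effect of the current and an effect of a change of medium cannot be told apart. The authors plated the MFs on gelatin the day before the current, which ran through electrodes in the medium. Their methods do not say that untreated MFs were handled so, and these steps cannot be told apart from the current. Neither can passage, low serum and differentiation be told apart between MF and CF. The labels name no animal, litter or culture date, and p-values therefore measure the spread between these libraries, which may be technical. Markers of fibroblasts and of other cell types could not be matched to IDs, so the labelled cell types were not checked against them.

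Library totals ran from 26473085 to 37903701 estimated counts. The lowest count of either gene in any library was 11397, so counting error was small beside the differences between libraries. Levels are given as CPM, counts brought to one common library total, after TMM scaling, which corrects for the composition of each library. Comparisons used edgeR's quasi-likelihood test across all genes, with p adjusted by Benjamini-Hochberg. To be called, a gene needed an adjusted p below 0.05 and a log2 fold change of 1 or more in either direction. In bulk RNA, fewer cells that express a gene and less of its RNA per cell cannot be told apart.

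Eln stood highest in the CFs, lowest in the untreated MFs and between them after microcurrent. The CF libraries had 6978 and 16393 CPM of Eln, and the MF libraries had 509 and 707 CPM. The 1 µA libraries had 888 and 1323 CPM, and the 2 µA libraries had 943 and 2605 CPM. The groups CF and MF were far apart, with the lower CF library 9.87 times the higher MF library. All 4 treated libraries were above both MF libraries and below both CF libraries, while the 1 µA and 2 µA libraries overlapped. How many of all genes separated in this way was not counted, so this order only describes Eln. The lower CF library was 2.68 times the highest treated library, whereas the lowest treated library was only 1.25 times the higher MF library.

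Lox varied over a much smaller range and had its lowest values in the CFs. Its level was 432 and 373 CPM in CF replicates 1 and 2, and 654.5 and 602 CPM in MF replicates 1 and 2. It was 682 and 658 CPM at 1 µA, and 618 and 532 CPM at 2 µA. The 6 MF and treated libraries were all above both CF libraries, the lowest of them by a factor of 1.23. For this separation, too, the share of all genes was not counted. Treated and MF libraries overlapped, and 2 of the 4 treated libraries were above both MF libraries. From the lowest to the highest library Lox spanned a factor of 1.83 and Eln a factor of 32.2.

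**Figure D1:**
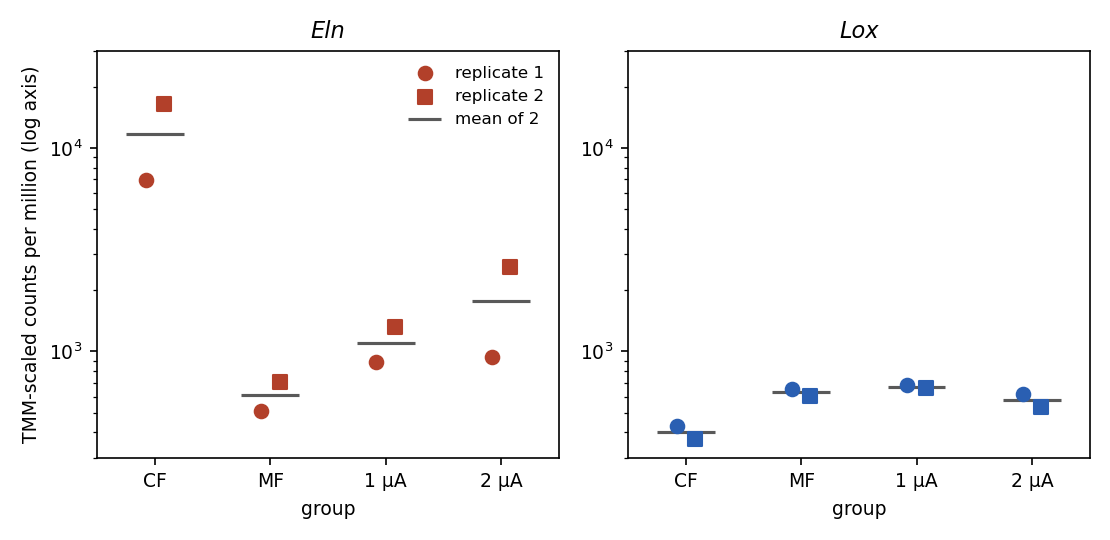
TMM-scaled CPM of Eln (left) and Lox (right) on a shared log axis, with 1 point per library (circles, replicate 1; squares, replicate 2) and a grey line at the mean of the 2 libraries of each group. Eln lies at 6978 and 16393 in the CFs against 509 and 707 in the MFs, and Lox stays between 373 and 682 throughout.

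The first comparison, MF against CF, asks what changed as the fibroblasts became myofibroblasts. Eln fell by 4.26 ± 0.64 (SE) on the log2 scale, from 11685 ± 6658 CPM (SD, n = 2) in the CFs to 608 ± 140 CPM (SD, n = 2) in the MFs. The MF level was thus 19.2-fold lower, with a 95% confidence interval from 6.66-fold to 55.5-fold (edgeR, adjusted p = 0.00868). Eln was called and Lox was not, so 1 of the 2 genes was called, against 10.4% of all genes tested. Only 38 genes had a more negative log2 fold change, and each of these averaged at most 4.89 log2 CPM over the 8 libraries, where Eln averaged 11.89. With other tools, scalings, filters, count tables and offsets the log2 fold change ran from -4.30 to -4.12 and the call held. It was lost without MF replicate 1 (log2 fold change -4.05, edgeR adjusted p = 0.0896) or MF replicate 2 (-4.52, edgeR adjusted p = 0.0696), and without CF replicate 2 the log2 fold change was -3.52. Over all alternatives the adjusted p ran from 1.59e-08 with DESeq2 to 0.0896.

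Lox moved the other way between these groups, by far less. It was 402.6 ± 41.8 CPM (SD, n = 2) in the CFs and 628 ± 37.0 CPM (SD, n = 2) in the MFs, and its log2 fold change was 0.64 ± 0.14 (SE). That is 1.56-fold higher in MF, with a 95% confidence interval from 1.25-fold to 1.96-fold (edgeR, adjusted p = 0.0231). The adjusted p passed its threshold, as it did for 18.5% of all genes, but the change was under the minimum fold and Lox was not called. In all, 2068 genes had a more positive log2 fold change. The adjusted p of edgeR no longer passed without MF replicate 1 (0.155), MF replicate 2 (0.0991) or 1 µA replicate 2 (0.0510), or with the CF and MF libraries alone in the fit (0.0592). Over its alternatives it ran from 0.000205 with DESeq2 to 0.155.

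**Figure D2:**
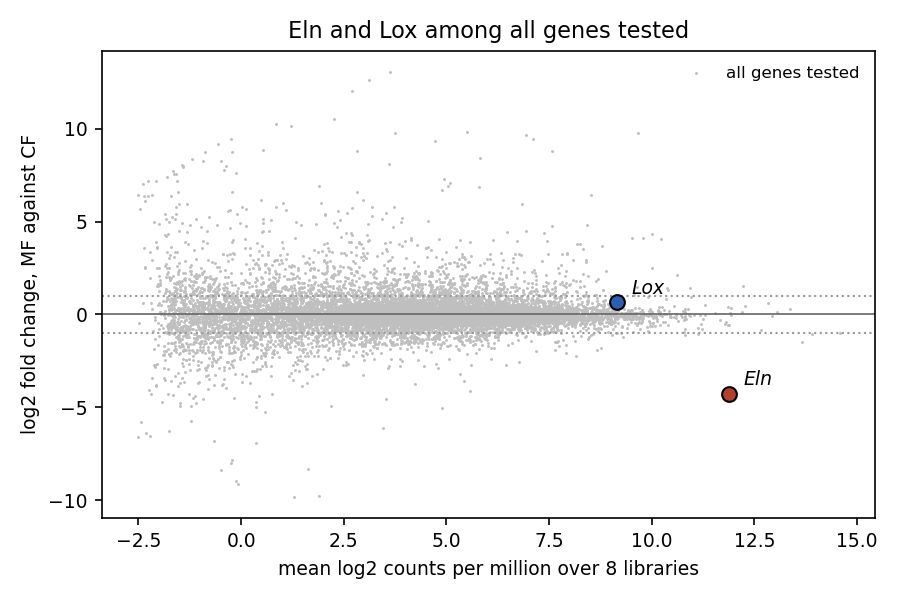
Log2 fold change of MF against CF (vertical axis) over the mean log2 CPM of the 8 libraries (horizontal axis) for all 13849 genes tested (grey), with Eln in red and Lox in blue and dotted lines at the minimum fold. Eln lies at -4.26, below every gene with a mean above 4.89, and Lox at 0.64, inside the dotted lines.

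The next comparisons set treated cells against untreated MFs, where the current cannot be told apart from a change of medium, plating or electrodes. For Eln the log2 fold change was 0.86 ± 0.57 (SE) at 1 µA, a ratio of 1.82 with a 95% confidence interval from 0.714 to 4.63 (edgeR, adjusted p = 0.380). At 2 µA it was 1.54 ± 0.58 (SE), a ratio of 2.92 with an interval from 1.13 to 7.54 (edgeR, adjusted p = 0.141). Neither difference was called, and 0 of the 2 genes were called at either density, against 3.92% of all genes at 1 µA and 4.62% at 2 µA. The adjusted p at 1 µA depended on which libraries shared the fit. With the 1 µA and MF libraries alone it was 0.0540 (edgeR, log2 fold change 0.87), close to its threshold. With the 2 µA and MF libraries alone it was 0.124 (edgeR, log2 fold change 1.55). Eln was called in 0 of 20 alternatives at each density. The intervals are for single genes and are not adjusted for the number of genes tested. The value at 2 µA depended on 1 library, since without 2 µA replicate 2 the log2 fold change was 0.63 and without 2 µA replicate 1 it was 2.10.

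With both current densities averaged, the 4 treated libraries had an Eln level of 1440 ± 801 CPM (SD, n = 4). The log2 fold change against MF was 1.20 ± 0.52 (SE), a ratio of 2.30 with an interval from 0.984 to 5.39 (edgeR, adjusted p = 0.160). This too was not called, and with Lox 0 of the 2 genes were called, against 6.76% of all genes. Eln was higher than both MF libraries in 4 of 4 treated libraries. The share of all genes for which this held was not counted, and nothing is concluded from it. An exact permutation test of the 4 treated libraries against the 2 MF libraries was chosen after seeing the data. Its two-sided p was 0.133, the smallest that this form of the test can give with 15 ways to divide 6 libraries. That floor lies above the threshold set for the adjusted p, so the test could not have passed and nothing is concluded from it. Leaving out 2 µA replicate 2 brought the log2 fold change down to 0.75.

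Lox differed little between treated and untreated MFs. Its log2 fold change was 0.09 ± 0.14 (SE) at 1 µA (edgeR, adjusted p = 0.703) and -0.13 ± 0.14 (SE) at 2 µA (edgeR, adjusted p = 0.585). For the mean of both densities it was -0.02 ± 0.12 (SE), with a 95% confidence interval of the ratio from 0.814 to 1.20 (edgeR, adjusted p = 0.935). The treated libraries averaged 623 ± 65.7 CPM (SD, n = 4). The sign of this last difference turned under upper quartile scaling, without MF replicate 1 and without 2 µA replicate 2, at log2 fold changes of 0.031, 0.043 and 0.034.

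**Figure D3:**
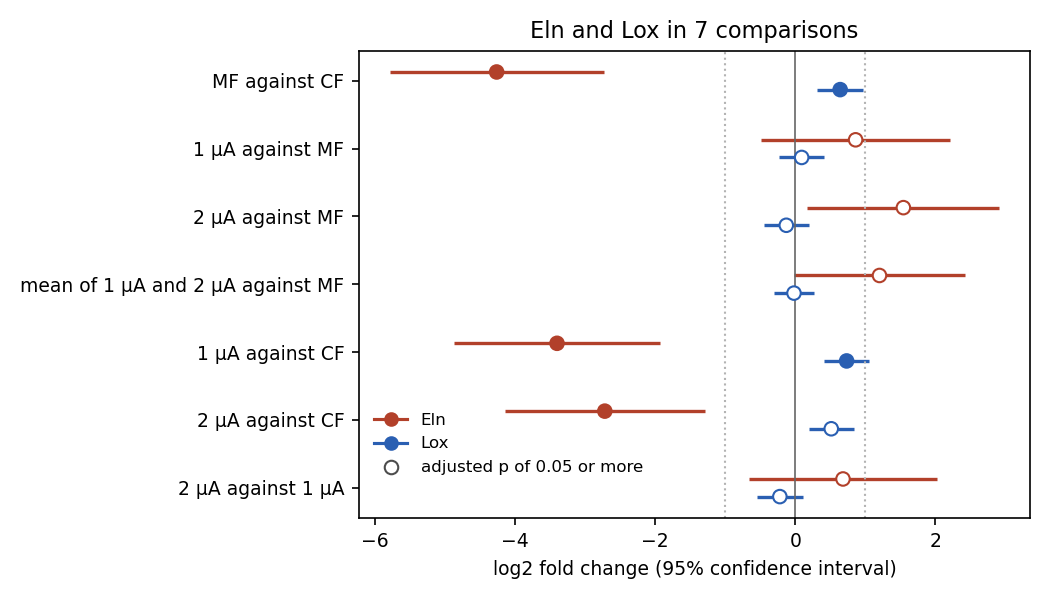
Log2 fold change with its 95% confidence interval for Eln (red) and Lox (blue) in the 7 comparisons, the group named first over the group named second, with open circles where the adjusted p was 0.05 or more and dotted lines at the minimum fold. Eln lies left of the dotted line at -1 in the 3 comparisons with CF, and each interval of Lox against MF spans 0.

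Against the CFs, the treated cells still had less Eln. The log2 fold change was -3.40 ± 0.62 (SE) at 1 µA, where Eln was 10.6-fold lower with an interval from 3.82-fold to 29.3-fold (edgeR, adjusted p = 0.0212). At 2 µA it was -2.72 ± 0.60 (SE), and Eln was 6.59-fold lower with an interval from 2.45-fold to 17.7-fold (edgeR, adjusted p = 0.0446). Of the 2 genes, 1 (Eln) was called at each density, against 6.51% of all genes at 1 µA and 5.02% at 2 µA. These comparisons share the CF libraries with each other and with the comparison of MF with CF.

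These calls were lost in several fits that left out 1 library. In some of them that library was in neither group compared, and the log2 fold change hardly moved. The call at 1 µA was lost without 1 µA replicate 1 or 2 (log2 fold changes -3.14 and -3.71) and without MF replicate 1 or 2 (-3.40 in each), at edgeR adjusted p from 0.0539 to 0.154, and without CF replicate 2 the value was -2.66. The call at 2 µA was lost without CF replicate 2 (-1.97), 2 µA replicate 1 (-2.16), 1 µA replicate 1 (-2.72) or 2 (-2.70), or MF replicate 1 or 2 (-2.72 in each), at edgeR adjusted p from 0.0791 to 0.143. It was also lost with the 2 µA and CF libraries alone in the fit (edgeR adjusted p = 0.179), and without 2 µA replicate 2 the value was -3.63 and the call held. Eln was lower than in CF in each of these fits.

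**Figure D4:**
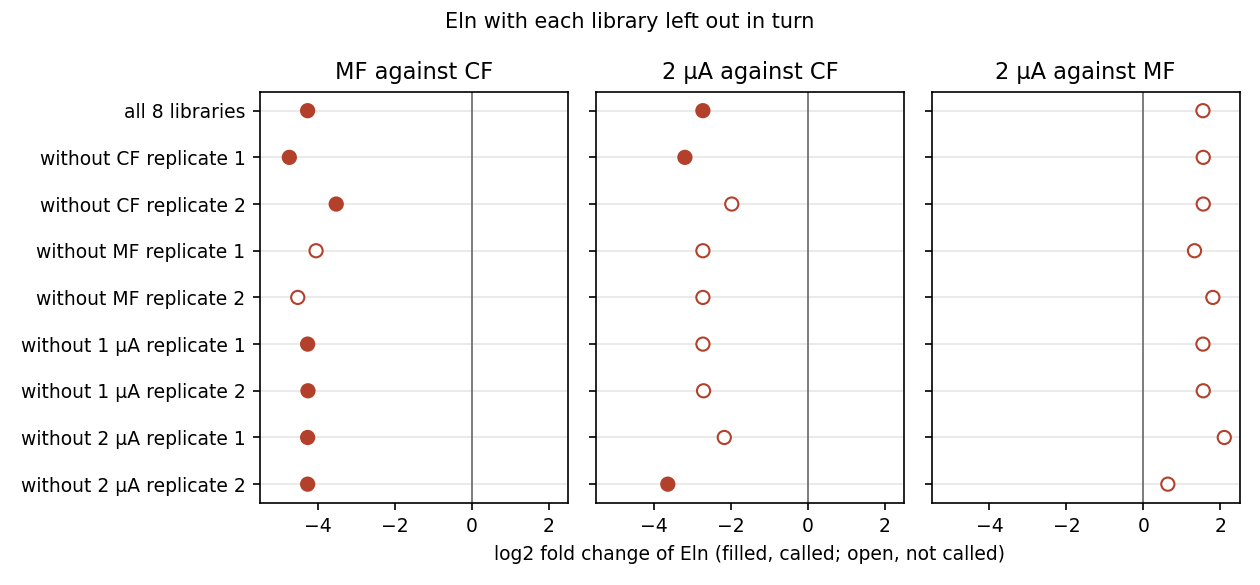
Log2 fold change of Eln in 3 comparisons with all 8 libraries (top row) and with each library left out in turn, filled where the gene was called and open where it was not. For MF against CF the values run from -4.74 to -3.52, for 2 µA against CF from -3.63 to -1.97 and for 2 µA against MF from 0.63 to 2.10.

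Lox in the treated cells lay above the CF level. At 1 µA its log2 fold change against CF was 0.73 ± 0.14 (SE), a ratio of 1.66 with an interval from 1.33 to 2.08 (edgeR, adjusted p = 0.0223). At 2 µA it was 0.51 ± 0.14 (SE), a ratio of 1.43, with an interval of the log2 fold change from 0.19 to 0.84 (edgeR, adjusted p = 0.0728). The adjusted p passed at 1 µA, as for 9.57% of all genes, and did not pass at 2 µA, where it did for 7.13%. With DESeq2 it passed at 2 µA as well (0.00766), the lowest of its alternatives, which ran up to 0.289. Neither difference reached the minimum fold. At 1 µA the adjusted p of edgeR did not pass without 1 µA replicate 1 (0.134) or 2 (0.105), without MF replicate 1 (0.0610) or 2 (0.0617), or with only 1 µA and CF in the fit (0.0671).

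The 2 current densities were not told apart by either gene. Eln was 1774 ± 1175 CPM (SD, n = 2) at 2 µA and 1105 ± 308 CPM (SD, n = 2) at 1 µA, a log2 difference of 0.68 ± 0.56 (SE) with an interval of the ratio from 0.632 to 4.08 (edgeR, adjusted p = 1). Without 2 µA replicate 2 this difference turned to -0.23. Lox was 575 ± 61.0 CPM (SD, n = 2) at 2 µA and 669.8 ± 17.3 CPM (SD, n = 2) at 1 µA, a log2 difference of -0.22 ± 0.14 (SE) with an interval of the ratio from 0.686 to 1.08 (edgeR, adjusted p = 1). Neither gene was called between the densities, 0 of 2, against 0.00722% of all genes (1 gene), and 72 had an unadjusted p below 0.05.

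In order of mean level, Eln thus ran CF, 2 µA, 1 µA, MF. Of the neighbours in this order, CF and 2 µA differed by the test with all 8 libraries, and neither 2 µA and 1 µA nor 1 µA and MF did. The order of Lox was 1 µA, MF, 2 µA, CF, and no neighbours in it differed by the test, although MF and 1 µA each did from CF at the adjusted p alone.

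Eln was also the less repeatable gene of the pair. Its replicates differed by 1.23 on the log2 scale in CF, 0.47 in MF, 0.58 at 1 µA and 1.47 at 2 µA, where the median over all genes tested was 0.26, 0.12, 0.15 and 0.20. The share of all genes with a smaller replicate difference than Eln was 93.8% in CF, 89.8% in MF, 89.0% at 1 µA and 97.2% at 2 µA. The replicates of Lox differed by 0.21, 0.12, 0.05 and 0.22, close to or under the median of all genes in each group. The coefficient of biological variation that edgeR estimated for each gene before the fit was 38.7% for Eln and 12.5% for Lox, and it may include technical spread.

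Within each of the 4 groups, the library with more Eln had less Lox, and it was the library numbered 2 in every group. How many of all genes kept the same direction in every group was not counted, so nothing is concluded from this. The labels do not say that a number marks a shared batch. The log2 ratio of Eln to Lox counts was 4.01 and 5.46 in the CF libraries, -0.36 and 0.23 in those of MF, 0.38 and 1.01 at 1 µA, and 0.61 and 2.29 at 2 µA. Counts are not corrected for transcript length, so only the change of this ratio between libraries can be read. It averaged 4.74 ± 1.02 (SD, n = 2) in CF and -0.07 ± 0.42 (SD, n = 2) in MF, against 0.69 ± 0.44 (SD, n = 2) at 1 µA and 1.45 ± 1.19 (SD, n = 2) at 2 µA.

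The 5 genes most like each in pattern, of which 2 are named, were sought among 11948 genes with a mean of at least 50 counts, by Pearson's r of log2 CPM over the 8 libraries, which share depth and groups across genes. ENSRNOG00000019544 (r = 0.994) and ENSRNOG00000017635 (r = 0.985) were most like Eln. Their log2 fold changes of MF against CF were -0.55 and -0.85, far smaller than that of Eln. ENSRNOG00000003635 (r = 0.982) and ENSRNOG00000008748 (r = 0.979) were most like Lox, with log2 fold changes of MF against CF of 0.62 and 0.18. An r above 0.9 was reached by 156 of the 11948 genes with Eln and by 156 with Lox, so a high r was not particular to the named genes. Between Eln and Lox themselves r was -0.954. How many genes had an r this negative with either was not counted, so the value is not read as particular to the pair. With the authors' vst values in place of log2 CPM, 5 of the 5 genes most like Eln and 4 of the 5 most like Lox were the same.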

How the data were processed

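RNA was sequenced from 8 libraries as paired 150 bp reads. Estimated counts of each gene, deposited by the authors, came from salmon (rn6 transcripts) and tximeta. The authors derived from them normalized values, a signal after division by DESeq2 factors per gene and library, and variance stabilised (vst) values in log2 units. Whole-number counts of 13341 genes stand in a separate deposited table, whose pipeline is not given in the sources used here. The submitters' processing notes list STAR and DESeq2 1.28.1. Estimated counts were rounded and tested with edgeR 4.0.16 (limma 3.58.1, R 4.3.3) using filterByExpr, TMM, robust dispersions and 1 coefficient per group over all 8 libraries, which left 4 residual degrees of freedom. The fit was tried on counts simulated from its own dispersion estimates, with the same spread in each group. Such a trial cannot show whether those estimates suit these libraries. Standard errors are the log2 fold change over the square root of F, and log2 CPM used a prior count of 2. Figures used Python 3.11.15 and matplotlib 3.10.9.

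Replicates differed by more than sampling noise in each group (chi-square per gene of the whole-number counts from 15.8 to 89.2), so none was treated as a copy. Groups and replicate numbers came from the sample titles. The members, gene lists and tests were chosen with earlier results of these data known. Lists of elastic fibre, lysyl oxidase family, collagen, protease and TGF-beta genes and cell type markers were planned by symbol and not run, because 0 Ensembl IDs matched the RefSeq gene table (GRCr8). For the same reason the genes most like Eln and Lox are given by ID, at most 2 for each. The rule for named genes was otherwise both members in every library and comparison. Alternatives were DESeq2 1.42.0, scaling by RLE or by the upper quartile, filters of any count above 0 or of 10 counts in each library, the whole-number counts, transcript length offsets, limma on the vst values, only the groups compared, a replicate block, other thresholds and leaving out each library.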

Additional observations from a re-analysis of the deposited data

How the results depend on the processing

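For none of these changes was the cause tested. With 2 libraries per group the calls rest on the spread shared by the groups, and where a group kept 1 library, that library was assumed to vary like the others. At an adjusted p below 0.01 with the minimum fold, the calls of Eln against CF were lost at 1 µA (log2 fold change -3.40) and 2 µA (-2.72), and at 2 µA also with only those groups in the fit (-2.72). At an adjusted p below 0.05 alone, Lox was called for MF against CF (0.64) and 1 µA against CF (0.73). Lox in the mean of both densities against MF turned to 0.031 under upper quartile scaling. Leaving out each library gave Eln from -4.74 to -3.52 for MF against CF, -3.88 to -2.66 for 1 µA and -3.63 to -1.97 for 2 µA against CF, and -0.23 to 1.24 for 2 µA against 1 µA, and Lox from -0.076 to 0.043 for the treated mean against MF. Eln was called in 6, 4 and 2 of the 8 such fits for MF, 1 µA and 2 µA against CF.

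With the replicate number as a block, Eln was called in the mean of both densities against MF (1.12, edgeR adjusted p = 0.0451, in a range from 0.0451 to 0.528 over its alternatives), and no other call of either gene changed. For Eln at 2 µA against MF the edgeR adjusted p with the block was 0.0506. The numbers were not taken to pair the libraries, because the labels tie no number to a shared batch. Over all genes tested, deviations of same-numbered libraries in different groups correlated from -0.172 to 0.242, which cannot decide whether they were paired. The block moved the count of called genes from 1438 to 1279 for MF against CF, from 543 to 379 and 640 to 485 at 1 µA and 2 µA against MF, from 936 to 821 for their mean, and from 901 to 807 and 695 to 610 against CF.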

Other observations

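The 2 count tables gave different levels for Lox and like changes. The whole-number count of Lox was 0.353 to 0.418 of its estimated count over the 8 libraries, where the median over 11720 genes in both tables was at least 0.715 in each library. For Eln the ratio was 0.616 to 0.654. By library, 8.86% to 11.0% of those genes had a still lower ratio than Lox, and 27.1% to 31.3% a lower one than Eln. The ratio of Lox was lowest in CF replicate 2. The matrix gave a log2 fold change of Lox in MF against CF of 0.72, next to 0.64 from the estimated counts. For Eln the matrix gave -4.28, next to -4.26. In the RefSeq annotation of GRCr8, which is not the build of the files, Lox overlaps the pseudogene Rps3a-ps12 and Eln overlaps the long non-coding RNA gene LOC102553484. The sources used here do not say that reads were counted by strand, and the part of these neighbours in the counts was not tested.

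The authors' normalization carries a factor per gene and library for transcript length. Relative to the median gene of each library, it ranged from 0.985 to 1.01 for Eln and from 0.977 to 1.03 for Lox, and with these offsets the log2 fold changes of MF against CF were -4.23 and 0.67.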
